A study of Mus musculus with 20 samples.

Results

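CD45+ leukocytes selected on magnetic beads from orthotopic pancreatic tumours were compared between hosts labelled wild type (WT) and hosts labelled IL33-/- (IL33KO). The comparison rests on 10 of the 20 RNA-seq libraries of the series, 5 from each host genotype, and on the 16731 of 46983 annotated genes that passed a filter on low counts. All hosts were C57BL/6 mice, all tumours were grown from cultured KPC mouse pancreatic cancer cells placed in the pancreas and taken at 2 weeks, and no mouse was treated. The other 10 libraries are bulk tumour from the same 2 host genotypes and serve here only to show where the leukocyte comparison differs. The genotype is that of the host, and the labels do not say whether the tumour cells carry Il33. They give 5 hosts per genotype but tie no library to a mouse, so the tests rest on the variation among libraries, part of which may be technical.

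IL-33 is a cytokine of the IL-1 family that is held in the nucleus of barrier and stromal cells and released when they are damaged. It binds ST2, the product of Il1rl1, which pairs with the accessory receptor Il1rap and signals through Myd88, IRAK kinases and Traf6 to NF-kB and p38. ST2 is carried by group 2 innate lymphoid cells, regulatory T cells, mast cells and some macrophages and T cells. Loss of host IL-33 can therefore touch cells that bear the receptor as well as cells that respond to what those cells make.

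The libraries held 53316191 to 69205119 counts in genes, and 3 counts corresponded to 0.0433 to 0.0563 CPM, counts scaled to a common library size. All 15 pan-leukocyte marker genes were tested, with summed levels of 8028 to 11052 CPM in WT and 8405 to 10655 CPM in the libraries labelled IL33KO. Ptprc, which encodes CD45 itself, had a log2 difference of +0.11 (SE 0.13) and overlapping groups. The material was not leukocytes alone: tumour epithelial genes summed to 1019 to 2589 CPM in WT and 1784 to 2684 CPM in the other group, and pancreatic acinar genes to 997 to 6256 CPM and 1092 to 61750 CPM. IL33KO 3 had the highest acinar score, and with WT 3 it stood apart from the other 8 libraries on the first principal component (26.3% of the variance). Values below are CPM scaled with TMM factors, as mean ± SD over 5 libraries unless every library is given, and log2 differences are IL33KO minus WT. In such mixed samples fewer cells of a type and less RNA per cell cannot be told apart.

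Il33 was read in every library, so the counts do not check the labels, and "labelled IL33KO" is meant throughout. Il33 (ENSMUSG00000024810.16, chromosome 19, 29925114 to 29960718, mm10) stood at 4.95, 8.81, 17.0, 12.7 and 10.5 CPM in WT 1 to 5 and at 12.1, 12.7, 21.9, 15.1 and 13.04 CPM in IL33KO 1 to 5. The groups overlapped, with a log2 difference of +0.47 (SE 0.29, edgeR adjusted p = 0.524) and a two-sided exact permutation p = 0.127 (0.169 after adjustment over 4 such tests). Il1rl1 stood at 11.7, 6.16, 5.37, 7.39 and 15.6 CPM in WT and at 5.67, 6.92, 5.58, 15.1 and 15.1 CPM in IL33KO. Both groups held low and high libraries, and the difference was +0.07 (SE 0.39, adjusted p = 0.963; exact permutation p = 0.937).

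Cndp2 fell and Gm15446 rose, and these were the only calls of the edgeR quasi-likelihood test at an adjusted p under 0.05. That is 2 of 16731 genes, or 0.012%, with 1 in each direction (0.00598%). Cndp2 (ENSMUSG00000024644.16, chromosome 18, 84667465 to 84685702, mm10) encodes a cytosolic dipeptidase. It was read at 307, 283, 343, 260 and 282 CPM in WT 1 to 5 and at 68.8, 75.0, 117, 89.7 and 88.6 CPM in IL33KO 1 to 5. Even the highest IL33KO library stood below the lowest WT library, at a log2 difference of −1.75 (SE 0.14, edgeR adjusted p = 0.00185). Gm15446 (ENSMUSG00000090015.8, chromosome 5, 109923400 to 109943936, mm10), a predicted protein-coding gene, was at 0.236, 0.288, 0.251, 0.437 and 0.511 CPM in WT and at 3.12, 4.18, 1.13, 2.75 and 3.30 CPM in IL33KO. Its groups did not overlap either, with a difference of +3.07 (SE 0.37, adjusted p = 0.0428). Cndp2 was called in all 25 alternative analyses and Gm15446 in 12 of 24. Removing 1 library ended the call of Gm15446 in 9 of 10 cases (all but the removal of IL33KO 3), with adjusted p from 0.0637 to 0.280, although its log2 difference stayed between 2.90 and 3.27.

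Bulk tumour gave another picture for Gm15446 and a like direction for Cndp2. On the scaling of all 20 libraries Gm15446 was at 2.84 ± 0.739 CPM in bulk WT and 3.62 ± 0.522 CPM in bulk IL33KO, so the WT leukocytes alone were low. Mid1, which encodes a microtubule-bound ubiquitin ligase, had the same order of levels, with 9.24 ± 3.09 CPM in bulk WT and 9.25 ± 2.48 CPM in bulk IL33KO. In leukocytes Mid1 was at 2.15, 2.20, 3.82, 3.17 and 2.61 CPM in WT and at 12.3, 6.15, 7.40, 8.70 and 10.7 CPM in IL33KO, with no overlap (log2 difference +1.70, SE 0.23, edgeR adjusted p = 0.0706). Cndp2 in bulk tumour was at 64.7 ± 25.9 CPM and 44.0 ± 3.99 CPM (log2 difference −0.57, SE 0.22). The test of the difference between the compartments called none of 18145 genes (0%), against 2028 genes (11.2%) at an unadjusted p under 0.05. Within bulk tumour, 512 genes (2.97%) were higher and 583 (3.39%) lower at an unadjusted p under 0.05. The interaction was +2.71 on the log2 scale for Gm15446 (SE 0.41, adjusted p = 0.0526), +1.68 for Mid1 (SE 0.37, adjusted p = 0.445) and −1.21 for Cndp2 (SE 0.28, adjusted p = 0.445).

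Genes next to the 2 called genes were read from the same fit. Of the 5 tested genes on each side of Cndp2, none passed the adjusted threshold and Tshz1 had the largest difference, +0.32 (SE 0.09, adjusted p = 0.223). Of the 10 tested around Gm15446, Tmed11 had the largest difference, +2.35 (SE 1.115, adjusted p = 0.414), at 0.159 ± 0.0746 against 0.824 ± 1.26 CPM with overlap. Of these 10, Crlf2 was the one without overlap (2.32% of all genes below). It is the third tested gene before Gm15446 (chromosome 5, 109554709 to 109558993) and encodes the receptor chain for the cytokine TSLP. Crlf2 was at 59.2, 59.8, 87.5, 65.5 and 54.6 CPM in WT and at 45.4, 35.5, 25.8, 35.1 and 44.0 CPM in IL33KO. No IL33KO library reached the lowest WT library, at a log2 difference of −0.81 (SE 0.17, edgeR adjusted p = 0.149, DESeq2 adjusted p = 0.00119). With an offset for exon length and GC content, described below, Crlf2 was at −0.51. Around Il33, all but 1 of the 10 neighbours tested had positive differences, against 53.7% of all genes tested. Of these neighbours 9930021J03Rik was the one without overlap (1.26% of all genes above), at 16.6 ± 1.01 against 21.5 ± 1.49 CPM (+0.37, SE 0.08, adjusted p = 0.149).

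**Figure D1:**
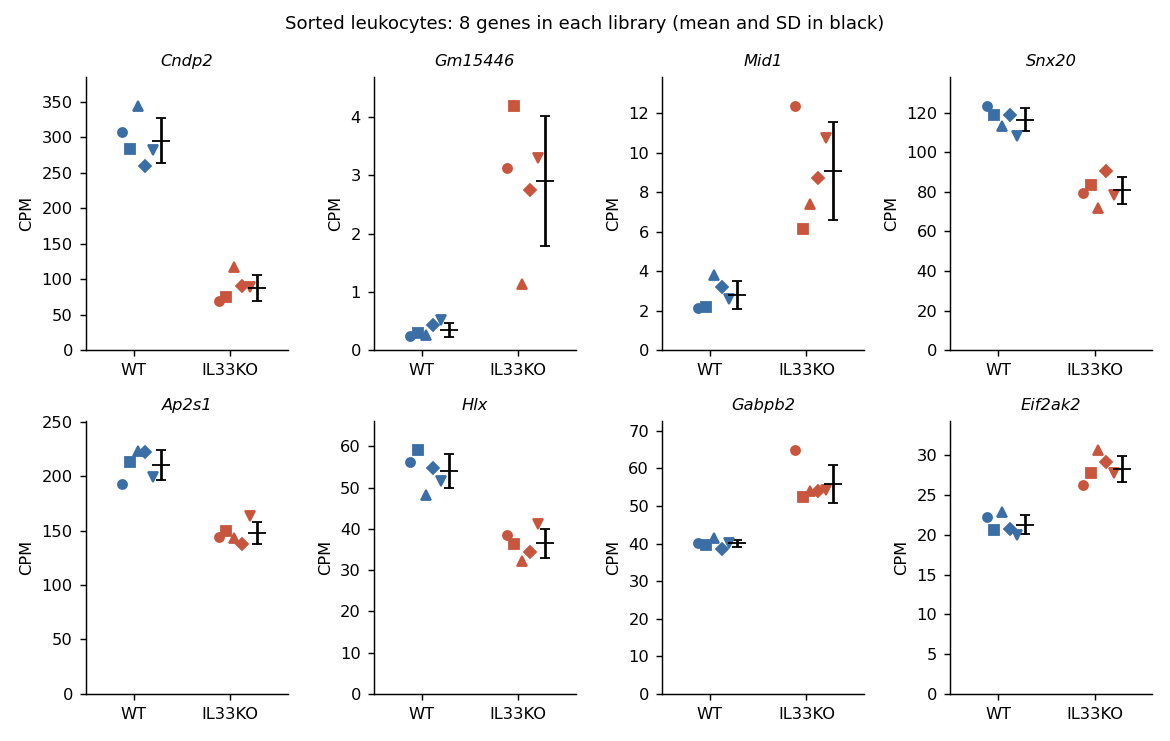
CPM (TMM-scaled, linear axes from 0) of 8 genes in the 5 WT (blue) and 5 IL33KO (red) sorted libraries; the marker shape gives the library number (circle 1, square 2, triangle up 3, diamond 4, triangle down 5), and black bars show mean and SD. In all 8 panels the groups do not overlap, but only Cndp2 and Gm15446 passed the adjusted threshold.

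A wider set of genes differed without passing that threshold. At an unadjusted p under 0.05 there were 1015 genes higher (6.07% of those tested) and 1141 lower (6.82%), and the 5 libraries of each group did not overlap for 211 genes above (1.26%) and 388 below (2.32%), 3.58% in all. Single libraries moved the unadjusted counts: there were 641 higher and 834 lower without WT 2, 649 and 915 without IL33KO 1, and 1549 and 1586 without WT 3. Lower counts were 1032 without WT 1, 964 without WT 5, 1043 without IL33KO 2, 1040 without IL33KO 3 and 1043 without IL33KO 4. Each of these fits tested 16857 to 16977 genes. List counts below with 1 library left out are to be read against them. DESeq2 called 172 genes higher (1.03%) and 394 lower (2.35%), 3.38% in all, and limma voom 186 higher (1.11%) and 207 lower (1.24%), with 282 called in the same direction by both. Over all genes tested the median log2 difference was +0.02.

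Among the genes with the smallest p on the lower side were a sorting nexin, a coat adaptor and a transcription factor. Snx20, a sorting nexin of leukocytes, was at 123, 119, 114, 119 and 108 CPM in WT and at 79.2, 83.4, 72.0, 90.3 and 78.5 CPM in IL33KO (log2 difference −0.53, SE 0.07, edgeR adjusted p = 0.0706). Ap2s1, the small subunit of the AP-2 clathrin adaptor, was at 210 ± 13.7 against 148 ± 9.90 CPM (−0.51, SE 0.07, adjusted p = 0.0768). Hlx, a homeobox factor of haematopoietic cells, was at 54.0 ± 4.15 against 36.5 ± 3.47 CPM (−0.56, SE 0.08, adjusted p = 0.0768). All 3 were lower in every IL33KO library than in any WT library. The clathrin light chains had the same sign. Clta was at 319 ± 10.8 against 255 ± 12.3 CPM (−0.32, SE 0.06, DESeq2 adjusted p = 1.8e-06) and Cltb at 48.0 ± 5.05 against 39.8 ± 4.14 CPM (−0.27, SE 0.09, adjusted p = 0.287). Over the 19 clathrin and adaptor genes tested, however, 8 differences were positive and 11 negative, with a median of −0.05. Plxdc2, a membrane protein with a plexin domain, was at 59.7 ± 5.40 against 41.3 ± 5.01 CPM in leukocytes (−0.53, SE 0.10), while bulk tumour gave +0.15 (SE 0.13).

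On the higher side the smallest p values after Mid1 belonged to Gabpb2, a subunit of the GABP transcription factor. Gabpb2 was at 40.1, 39.6, 41.5, 38.7 and 40.3 CPM in WT and at 64.8, 52.3, 54.0, 54.0 and 54.3 CPM in IL33KO (+0.48, SE 0.07, edgeR adjusted p = 0.0768). The WT libraries lay close together, and IL33KO 1 stood above the other 4 of its group. Eif2ak2, which encodes the double-stranded RNA kinase PKR, was at 21.3 ± 1.22 against 28.3 ± 1.65 CPM (+0.41, SE 0.07, adjusted p = 0.144). It is also an interferon-stimulated gene, but of the 30 such genes tested 11 were positive and 19 negative, and Isg15 had the opposite sign (131 ± 27.0 against 91.7 ± 19.1 CPM, −0.51, SE 0.17, adjusted p = 0.262). Ace, a peptidase carried by non-classical monocytes, was at 18.1 ± 1.58 against 29.0 ± 5.62 CPM (+0.68, SE 0.13, adjusted p = 0.144). Cebpb, a factor needed by the same monocytes, had the opposite sign, at 208 ± 25.6 against 123 ± 33.5 CPM (−0.75, SE 0.19, adjusted p = 0.176). Non-classical monocyte genes as a list were evenly divided, with 5 positive and 5 negative of 10.

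Pydc3 and Stag3, chosen after their values were seen, had large differences at low levels. Pydc3, a pyrin-domain gene, was at 2.18, 0.811, 1.42, 0.692 and 1.35 CPM in WT and at 5.01, 1.48, 6.79, 14.2 and 5.02 CPM in IL33KO (+2.33, SE 0.53, edgeR adjusted p = 0.163). Stag3, a meiotic cohesin subunit, was at 0.599 ± 0.145 against 2.10 ± 0.881 CPM without overlap (+1.81, SE 0.34, adjusted p = 0.144). Tmem180, one of the genes with the smallest p on the lower side, was at 19.3 ± 1.29 against 9.02 ± 3.01 CPM without overlap (−1.10, SE 0.19, adjusted p = 0.144).

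The sign of a gene's difference went with the length of its exons. For 10522 protein-coding genes at a mean of 5 CPM or more in either group, divided into 5 equal classes by summed exon length in GENCODE M21, the median log2 difference was −0.13 in the shortest class and then −0.06, −0.0023, +0.05 and +0.14 in the longest. In the shortest class 24.7% of genes were lower at an unadjusted p under 0.05 and 0.238% higher. In the longest class 1.14% were lower and 21.5% higher. The 158 genes without overlap above had a median exon length of 9379 bases, the 366 below a median of 2426 bases, and all 10522 a median of 4566 bases. Across these genes the rank correlation of length with the log2 difference was 0.467, a description over genes, which share libraries and are not replicates. Short genes also tend to be rich in GC, and the rank correlation with exon GC content was −0.374.

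**Figure D2:**
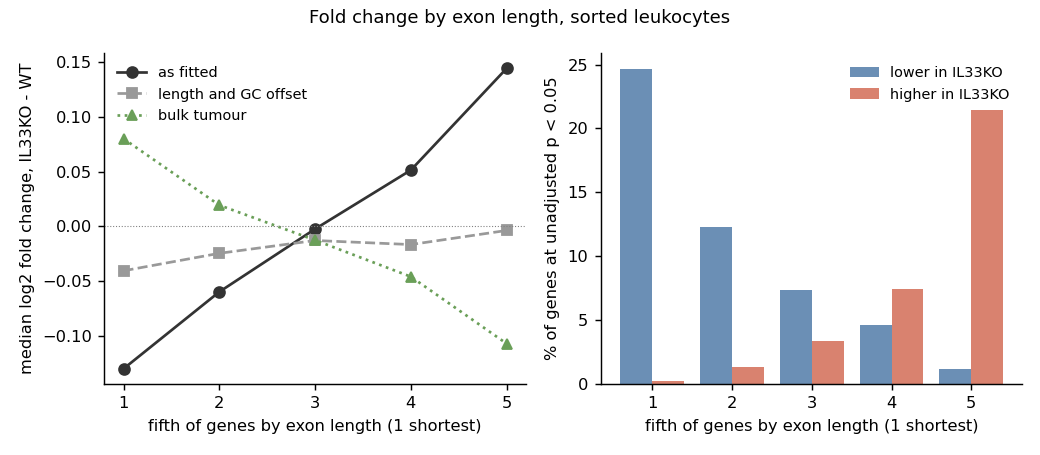
Left, median log2 difference (IL33KO minus WT) of protein-coding genes in each class by exon length, for sorted leukocytes as fitted (black), for the same fit with a length and GC offset per library (grey) and for bulk tumour (green). Right, percent of genes in each class at an unadjusted p under 0.05 in sorted leukocytes, which runs from 24.7% lower in the shortest class to 21.5% higher in the longest.

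The same trend separated the sorted libraries 1 by 1. The length gap of a library, its median log2 CPM over the longest class minus that over the shortest class, was −0.09, −0.19, −0.07, −0.19 and −0.19 in WT 1 to 5 and 0.26, 0.12, 0.08, 0.19 and 0.13 in IL33KO 1 to 5. Every WT library was below 0 and every IL33KO library above it. The means differed by 0.31, which restates by library the trend just described and is given without a test. The gap between the classes richest and poorest in GC was 0.33 ± 0.11 in WT and 0.11 ± 0.14 in IL33KO, with overlap. In bulk tumour the length gap was 0.65 ± 0.40 in WT and 0.46 ± 0.23 in IL33KO, with overlap (exact permutation p = 0.381). Of the library measures, the share of reads not aligned uniquely was 16.7 ± 1.68% in WT and 19.3 ± 2.57% in IL33KO (exact permutation p = 0.111), and the share of gene counts from the mitochondrial genome 4.06 ± 1.37% and 5.40 ± 1.90% (exact permutation p = 0.246). Neither separated the groups, and their part in the length trend was not tested. The labels give no dates of sorting or library preparation, so handling and genotype cannot be told apart.

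**Figure D3:**
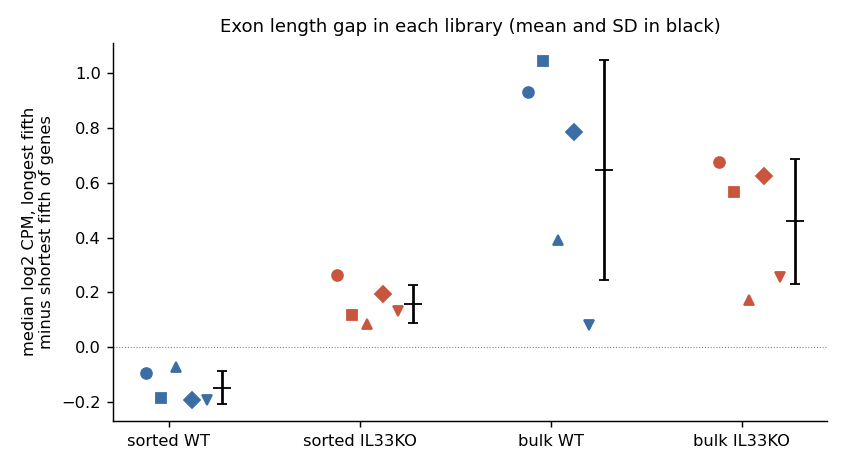
Length gap (log2 scale) of each of the 20 libraries by group, WT in blue and IL33KO in red, with the marker shape giving the library number (circle 1, square 2, triangle up 3, diamond 4, triangle down 5) and black bars mean and SD. The sorted WT libraries lie between −0.19 and −0.07 and the sorted IL33KO libraries between 0.08 and 0.26, whereas the bulk groups overlap.

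Because of this trend, lists and genes below are set beside a second fit in which a smooth function of exon length and GC content was removed from each library as an offset. That fit was chosen after seeing the data. It brought the medians of all classes to between −0.04 and −0.0036 and the rank correlation with length to 0.0655. It left 538 genes higher (3.22%) and 893 lower (5.34%) at an unadjusted p under 0.05, 8.55% in all. Cndp2 stayed called at −1.72 (edgeR adjusted p = 0.00246), Gm15446 was at +2.95 (adjusted p = 0.0519) and Snx20 at −0.56 on the log2 scale. Ankrd17, an ankyrin-repeat protein with long exons, went from +0.37 (SE 0.07) to +0.02, and Cdc34, a ubiquitin-conjugating enzyme, from −0.38 (SE 0.07) to −0.15. Gabpb2 went from +0.48 to +0.26, Cebpb from −0.75 to −0.40, Clta from −0.32 to −0.20, Hlx from −0.56 to −0.39 and Ap2s1 from −0.51 to −0.36. Mid1 (+1.65), Ace (+0.70) and Plxdc2 (−0.65) kept their size or gained. Offsets of this kind take out whatever follows length in a library, so they would also remove part of a response of short genes.

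Receptor signalling and innate lymphoid genes came first among the lists because they lie nearest to IL-33. Of the 20 group 2 innate lymphoid cell genes tested, 12 were positive and 8 negative with a median of +0.05 (10 and 10 with a median of +0.0059 with the offset), and summed levels were 669 to 1053 CPM in WT and 804 to 972 CPM in IL33KO. Gata3, the lineage factor, was at 8.17 ± 3.07 against 8.31 ± 2.77 CPM. The effector cytokines Il13 (3.02 ± 2.41 against 2.70 ± 1.75 CPM) and Il5 (0.584 ± 0.566 against 0.668 ± 0.614 CPM) and the growth factor Areg (7.53 ± 1.65 against 6.997 ± 1.41 CPM) had overlapping groups and edgeR adjusted p values of 0.852 to 0.952. Il18r1, a receptor that can also activate these cells, was at 16.1, 14.6, 16.8, 16.9 and 17.0 CPM in WT and at 24.1, 16.3, 15.5, 29.2 and 26.0 CPM in IL33KO (+0.45, SE 0.17, adjusted p = 0.310). Only Crlf2 of this list had groups that did not overlap, 1 of 20 tested, against 3.58% of all genes. At an unadjusted p under 0.05, 1 gene of the list was higher, Il18r1, and 1 lower, Crlf2, against 6.07% and 6.82% of all genes. Il9 and Nmur1 were too low to test, with at most 26 counts in a library. A list of 19 genes held Il33 itself, the receptor, its adaptors and kinases, inhibitors and NF-kB subunits. Of these 12 were positive, Il33 among them, and 7 negative, with a median of +0.02. With the offset 6 were positive and 13 negative, with a median of −0.05. Myd88 was at 184 ± 16.1 against 162 ± 12.5 CPM (−0.19, SE 0.08, adjusted p = 0.387), and Il1rap (−0.02, SE 0.25), the inhibitory kinase Irak3 (−0.0039, SE 0.18) and Traf6 (+0.02, SE 0.13) had overlapping groups.

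Macrophage genes were mostly lower on average, and no member of any list below passed the adjusted edgeR threshold. Of the 16 genes of C1q and lipid-associated macrophages, 14 were negative, 7 at an unadjusted p under 0.05 (6.82% of all genes) and 3 without overlap (2.32% of all genes), with a median of −0.24. Trem2, a lipid-sensing receptor of these cells, was at 154, 157, 157, 154 and 140 CPM in WT and at 71.8, 98.0, 113, 103 and 114 CPM in IL33KO (−0.61, SE 0.12, edgeR adjusted p = 0.144, DESeq2 adjusted p = 0.000458). The C1q chains begin the classical complement pathway. C1qa was at 2305, 2536, 2763, 2606 and 2502 CPM in WT and at 1289, 1917, 1806, 1826 and 2222 CPM in IL33KO (−0.49, SE 0.13), C1qb at 2379 ± 126 against 1761 ± 354 CPM (−0.43, SE 0.13) and C1qc at 1792 ± 130 against 1233 ± 232 CPM (−0.54, SE 0.13). C1qa and C1qc did not overlap between groups. With the length and GC offset Trem2 was unmoved at −0.61, the 3 C1q genes were at −0.32, −0.29 and −0.40, and 3 of the 16 were at an unadjusted p under 0.05 (5.34% of all genes). These were Trem2, C1qc and Apoe, a lipid carrier named after its value was seen, and all 3 were among the 7. Without IL33KO 1 the 7 genes as fitted became 5. In bulk tumour the median of the list was +0.15.

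Of 18 macrophage identity genes 16 were negative and 5 at an unadjusted p under 0.05 (6.82% of all genes). The median of −0.20 did not move with the offset. Vsig4 and Timd4, receptors of tissue-resident macrophages, had the largest differences, −1.56 (SE 0.55) and −1.18 (SE 0.45). Vsig4 was at 33.0, 19.4, 5.26, 8.43 and 8.27 CPM in WT and at 5.94, 6.33, 1.85, 8.11 and 2.98 CPM in IL33KO, so the high values were those of WT 1 and WT 2. Without WT 1 the list had 2 genes at an unadjusted p under 0.05. Lysosomal genes had the sign of the macrophage lists: 20 of 23 were negative and 7 at an unadjusted p under 0.05 (6.82% of all genes). That count was 4 with the offset (5.34% of all genes) and 4 without IL33KO 1. Npc2, a cholesterol carrier, was at 982 ± 60.0 against 786 ± 90.7 CPM (−0.32, SE 0.10). Fcgrt, the neonatal Fc receptor, was at 220 ± 20.3 against 158 ± 16.5 CPM without overlap (−0.48, SE 0.09), and all 6 Fc receptor genes were negative. Type 2 activated macrophage genes, a state tied to IL-4 and IL-13, were divided, with 6 positive and 10 negative of 16 and a median of −0.10 (7 and 9 with the offset). The median of that list changed sign in 2 of 25 alternatives and ran from −0.43 to +0.03 over them. Without WT 3 and IL33KO 3 it was −0.40. In that fit 3 genes of the list were lower at an unadjusted p under 0.05, as were 1550 of all 16846 genes tested. With all libraries the list had 2 (6.82% of all genes). Among classical monocyte genes 8 of 12 were positive with a median of +0.05.

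**Figure D4:**
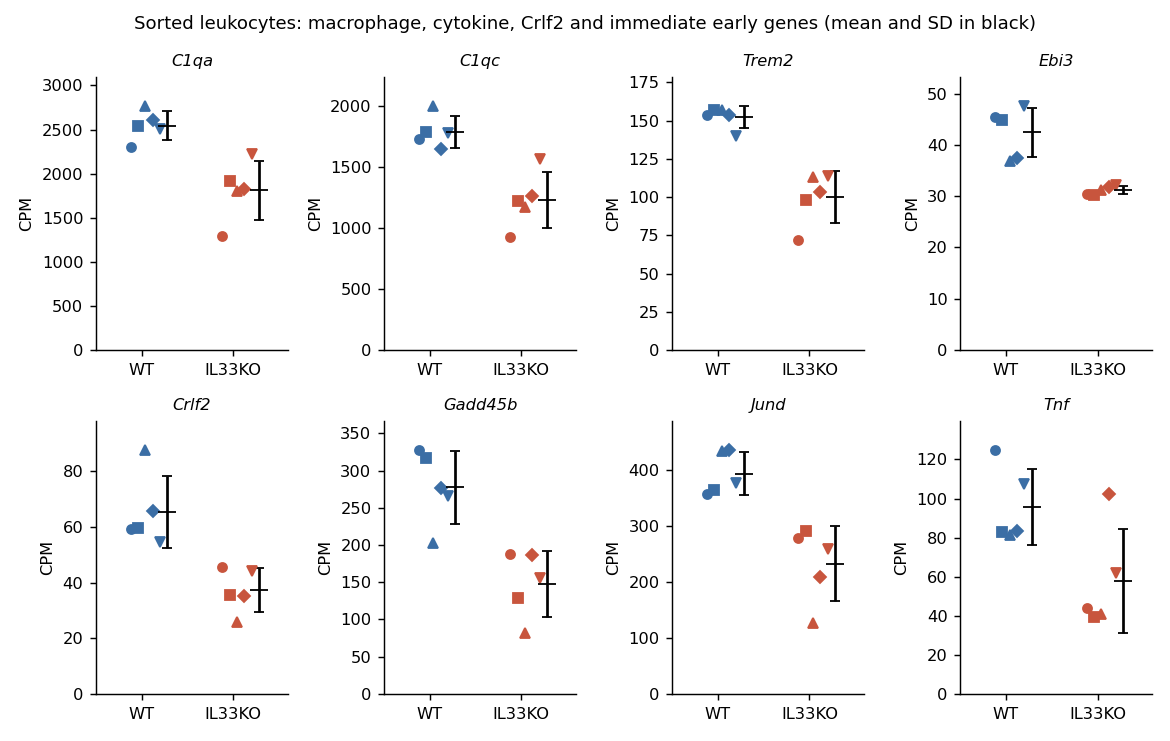
CPM (TMM-scaled, linear axes from 0) of 8 genes in the 5 WT (blue) and 5 IL33KO (red) sorted libraries, with marker shapes for the library number (circle 1, square 2, triangle up 3, diamond 4, triangle down 5) and black bars for mean and SD. The groups do not overlap for C1qa, C1qc, Trem2, Ebi3, Crlf2, Gadd45b and Jund, and they overlap for Tnf, where IL33KO 4 stands at 102 CPM.

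Immediate early genes, which are switched on within minutes of a stimulus and also of tissue handling, were lower on average in nearly all cases. Of 31 tested, 28 were negative, 11 at an unadjusted p under 0.05 (6.82% of all genes) and 4 without overlap (2.32% of all genes), with a median of −0.27. The 11 became 7 without WT 1 and 16 without IL33KO 4. DESeq2 called 6 of them lower, against 2.35% of all genes. Gadd45b, a stress-induced gene, was at 327, 316, 203, 276 and 266 CPM in WT and at 188, 129, 82.1, 186 and 156 CPM in IL33KO (−0.91, SE 0.22, edgeR adjusted p = 0.167). The AP-1 subunit Jund was at 359, 366, 435, 436 and 377 CPM in WT and at 279, 292, 127, 209 and 260 CPM in IL33KO (−0.76, SE 0.20, adjusted p = 0.179). With the offset Jund was at −0.40 and Gadd45b at −0.75. Csrnp1 was at 567 ± 68.0 against 393 ± 63.2 CPM (−0.53, SE 0.12) and Ier5 at 302 ± 28.5 against 227 ± 26.2 CPM (−0.41, SE 0.10). With the offset the list median was −0.20 and 10 genes were at an unadjusted p under 0.05 (5.34% of all genes). The interaction with compartment had an unadjusted p under 0.05 for 10 of the 31, against 11.2% of all genes, and the bulk median was +0.18. Heat shock genes had a median of +0.06, which was −0.02 without WT 3 and IL33KO 3, and none was at an unadjusted p under 0.05.

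Feedback genes of NF-kB and the cytokines they accompany had the same sign. Of 20 NF-kB feedback genes 17 were negative, 7 at an unadjusted p under 0.05 against 6.82% of all genes. That count was 5 with the offset (5.34% of all genes), 4 without WT 1 and 9 without IL33KO 4. Nfkbia, the inhibitor of NF-kB, was at 640 ± 125 against 432 ± 116 CPM (−0.57, SE 0.19, edgeR adjusted p = 0.274), and Nfkbib at 48.3 ± 2.63 against 35.1 ± 6.43 CPM without overlap (−0.46, SE 0.12, adjusted p = 0.183). Of 20 inflammatory cytokine genes 18 were negative and 6 at an unadjusted p under 0.05 (6.82% of all genes). With the offset 4 were at that p (5.34% of all genes), and 4 without IL33KO 3. Tnf was at 125, 82.7, 81.1, 83.3 and 107 CPM in WT and at 43.9, 39.4, 41.1, 102 and 62.0 CPM in IL33KO (−0.73, SE 0.26, adjusted p = 0.297). Its groups overlapped through IL33KO 4 alone. Ebi3, a shared subunit of IL-27 and IL-35, was at 42.4 ± 4.86 against 31.1 ± 0.804 CPM (−0.45, SE 0.08, DESeq2 adjusted p = 6.85e-05), and Tgfb1 at 318 ± 19.2 against 256 ± 17.6 CPM (−0.31, SE 0.08, DESeq2 adjusted p = 0.00138). Both were without overlap. Of 26 chemokine genes 19 were negative and 4 at an unadjusted p under 0.05 (6.82% of all genes), Ccl8 and Ccl4 among them. None was at that p with the offset, and none without WT 5.

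Antigen presentation genes were lower on average as well. Of 16 MHC class I presentation genes 14 were negative and 8 at an unadjusted p under 0.05, against 6.82% of all genes. With the offset 6 were at that p, against 5.34% of all genes. Psmb10, an immunoproteasome subunit, was at 247 ± 10.1 against 192 ± 16.0 CPM without overlap (−0.37, SE 0.08, DESeq2 adjusted p = 0.000144; −0.19 with the offset). Of 12 MHC class II genes 8 were negative and 5 at an unadjusted p under 0.05 (2 with the offset), against the same shares of all genes. H2-Eb1, a class II chain, was at 4828 ± 188 against 3731 ± 588 CPM and Cd74, the invariant chain, at 17393 ± 827 against 13791 ± 2083 CPM. Both were without overlap, at −0.37 (SE 0.11) and −0.33 (SE 0.11). Type 1 dendritic cell genes had a median of +0.06, type 2 of −0.16 and mature dendritic cell genes of +0.12. At most 2 members of each list were at an unadjusted p under 0.05, against 6.82% of all genes lower.

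Nuclear genes of the respiratory chain, which encode the inner-membrane complexes that feed ATP synthesis, were lower on average almost throughout, with no single gene past the adjusted edgeR threshold. In complex I 36 of 37 were negative, with a median of −0.21. Of these, 19 were at an unadjusted p under 0.05 (6.82% of all genes) and 9 without overlap (2.32% of all genes). DESeq2 called 11 lower, against 2.35% of all genes. In complexes II to IV 24 of 25 were negative and 9 at an unadjusted p under 0.05, and in the ATP synthase 16 of 16 and 5. Cox6a1, a subunit of cytochrome oxidase, was at 178, 196, 220, 205 and 196 CPM in WT and at 150.5, 145, 142, 145 and 165 CPM in IL33KO (−0.41, SE 0.08, edgeR adjusted p = 0.144, DESeq2 adjusted p = 4.31e-05). Ndufb7 was at 125 ± 13.6 against 97.4 ± 3.16 CPM (−0.36, SE 0.08) and Ndufs3 at 66.9 ± 5.02 against 55.2 ± 2.26 CPM (−0.28, SE 0.07), both complex I subunits and both without overlap. With the offset Cox6a1 was at −0.29 (edgeR unadjusted p = 0.162), Ndufb7 at −0.33 (edgeR unadjusted p = 0.00144) and Ndufs3 at −0.21 (edgeR unadjusted p = 0.0141). The median exon length of the complex I genes was 1569 bases, which lies in the shortest class. In that class 24.7% of genes were lower at an unadjusted p under 0.05 and 9.45% lay below without overlap. With the offset, 10, 4 and 4 genes of the 3 lists were at an unadjusted p under 0.05, against 5.34% of all genes. The medians were then −0.13, −0.14 and −0.10. Without WT 3 the complex I count was 29 and the complexes II to IV count 14, and without IL33KO 4 they were 15 and 7. Over all genes, 1586 of 16977 were lower at that p without WT 3 and 1043 of 16924 without IL33KO 4, against 1141 of 16731 with all libraries. The ribosomal protein genes are short too: 69 of 79 were negative with a median of −0.08, which was −0.02 with the offset.

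The bases before the start site of the 8 named genes of complexes I and II to IV were searched for CCGGAAG on both strands (RefSeq promoters, GRCm38.p6). CCGGAAG holds the core letters bound by ETS factors such as GABP. The search was made after the values of these genes were seen, and a cause of their shared sign was not tested. All 8 genes matched the table, and 3 held the letters within 250 bases. These are shown from base −150 to −1, 5′ to 3′ on the gene's strand, with the motif or its reverse complement in capitals, for a view of where the letters lie.
Cox6a1 (chr5:115348959-115349108, minus strand): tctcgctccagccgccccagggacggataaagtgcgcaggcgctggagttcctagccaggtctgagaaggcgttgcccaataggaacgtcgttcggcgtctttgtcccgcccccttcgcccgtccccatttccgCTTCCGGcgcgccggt
Ndufb7 (chr8:83566608-83566757, plus strand): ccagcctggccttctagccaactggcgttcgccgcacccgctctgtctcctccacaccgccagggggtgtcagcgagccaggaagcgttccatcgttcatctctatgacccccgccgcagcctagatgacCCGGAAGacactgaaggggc
Ndufs3 (chr2:90904722-90904871, minus strand): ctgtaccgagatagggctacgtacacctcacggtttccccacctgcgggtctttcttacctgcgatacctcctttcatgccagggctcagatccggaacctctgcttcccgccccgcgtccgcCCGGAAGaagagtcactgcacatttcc
Over the whole complex I list (33 of 37 genes matched) the letters stood in 3 of 35 promoters (8.57%), against 6.91% of all 32841 promoters. For complexes II to IV they stood in 5 of 18 promoters (27.8%), but only 18 of 25 genes matched the table, too few for the share to stand for the list. A second motif, the 10-base palindrome bound by NRF-1, stood in 1 of 35 promoters of complex I (2.86%) and 1 of 18 of complexes II to IV (5.56%), against 0.783% of all promoters. The match is a description of letters and says nothing of binding.

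Genes of T cells had both signs. Of 20 T cell receptor complex and signalling genes 10 were positive and 10 negative with a median of −0.02, of 16 cytotoxic effector genes 5 were positive, and of 19 checkpoint genes 10. No member of these 3 lists was at an unadjusted p under 0.05 or without overlap. Of 17 regulatory T cell genes 10 were positive with a median of +0.10, and 1 was higher at that p, near the 6.07% of all genes. It was Gpr83, at 0.275 ± 0.109 against 0.683 ± 0.642 CPM with overlap (+1.31, edgeR unadjusted p = 0.0346). Of 15 natural killer cell genes 13 were positive with a median of +0.17, 2 of them higher at that p (6.07% of all genes). Klrc2 was at 1.10 ± 0.153 against 1.59 ± 0.391 CPM (+0.53) and was the 1 without overlap (1.26% of all genes above). Itga2 was at 8.42 ± 3.67 against 13.8 ± 4.14 CPM (+0.71). With the offset 9 of the 15 were positive and none was at that p. Ifng was at 26.4 ± 9.37 against 20.5 ± 10.7 CPM (−0.36, SE 0.35), Gzma at 280 ± 156 against 167 ± 71.2 CPM (−0.74, SE 0.44) and Cd274, which encodes PD-L1, at 263 ± 65.8 against 228 ± 60.3 CPM (−0.21, SE 0.21). All 3 had overlapping groups. B cell genes were positive in 15 of 18 cases with a median of +0.53, and plasma cell genes negative in 13 of 14 with a median of −0.53, none at an unadjusted p under 0.05. Without IL33KO 2, 6 of the 14 plasma cell genes were lower at that p, against 1043 of all 16924 genes. The median of the list ran from −1.48 to −0.18 over the alternatives. Their summed levels spread widely, from 1610 to 12403 CPM (B cell) and 8763 to 66334 CPM (plasma cell) in WT and from 824 to 4847 CPM and 3117 to 80418 CPM in IL33KO.

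Genes of acinar cells, islet cells and immature neutrophils spread as widely, and all 3 lists had their highest score in IL33KO 3. Acinar genes were positive in 25 of 26 cases with a median of +2.07, islet genes in 6 of 6 with +1.40, and neutrophil granule genes in 12 of 12 with +1.14, and none was at an unadjusted p under 0.05. Prss2, a trypsinogen chosen like Mpo after values were seen, was at 228, 57.2, 342, 209 and 169 CPM in WT and at 245, 494, 3173, 59.2 and 64.0 CPM in IL33KO. IL33KO 3 was the highest and IL33KO 2 also stood above the WT range, while the other 3 IL33KO libraries lay within it. Mpo, a granule protein of immature neutrophils, was likewise highest in IL33KO 3, at 514 CPM, against 2.51 to 97.5 CPM in the other 4. With WT 3 and IL33KO 3 left out together, 1550 of 16846 genes were lower at an unadjusted p under 0.05, against 1141 of 16731 with all libraries. Beside that rise over all genes, the count was larger for complex I (28). It was as before for immediate early genes (11) and for C1q and lipid-associated macrophages (7). It was smaller for macrophage identity (4), lysosome (5), NF-kB feedback (4), inflammatory cytokine (4), chemokine (2), MHC class I (5) and MHC class II genes (3). The part of acinar and other non-leukocyte cells in the remaining results was not tested beyond a fit with the acinar score as a covariate. In that fit Cndp2 and Gm15446 stayed called. Both also stayed called with the marker genes of non-leukocyte cells left out. Leaving these genes out keeps all other RNA of such cells in the counts, so it cannot speak to their part.

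**Figure D5:**
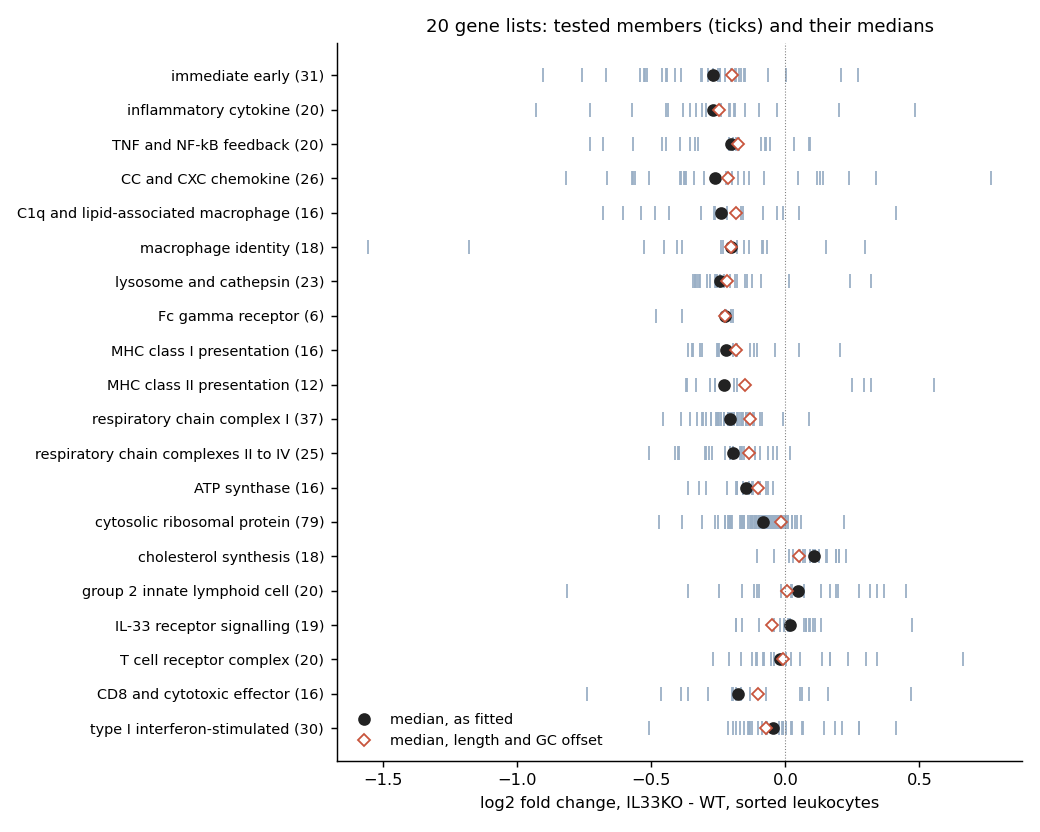
Log2 differences (IL33KO minus WT, sorted leukocytes) of the tested members of 20 gene lists (ticks; number tested in parentheses), with the list median as fitted (filled circles) and with the length and GC offset (open diamonds). Medians of complex I (−0.21), immediate early (−0.27) and MHC class I genes (−0.22) move towards 0 with the offset but stay below it, and that of IL-33 receptor signalling goes from +0.02 to −0.05.

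Cholesterol synthesis genes stood on the positive side, with 16 of 18 positive and a median of +0.11. Hmgcs1, an early enzyme of the pathway, was at 57.9 ± 4.86 against 67.6 ± 6.26 CPM without overlap (+0.23, SE 0.08, edgeR adjusted p = 0.308). With the offset the median was +0.05 and no member was at an unadjusted p under 0.05, against 2 higher as fitted (6.07% of all genes). Glycolysis and hypoxia genes were negative in 21 of 25 cases with a median of −0.15, none at an unadjusted p under 0.05, and cell cycle genes were divided, with 20 of 34 positive.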

How the data were processed

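The authors deposited raw HTSeq counts per gene for all 20 libraries, with 46983 genes, and a scaled table not used here. The submitters' processing notes name Picard, HTSeq, DESeq and the mm10 build, without versions. Per the labels, the library kit was stranded; which aligner was used, and whether HTSeq counted by strand, is not stated, so overlapping and antisense genes are uncertain, as are genes with near-identical copies. Summary lines, 28.0 to 40.5% of reads in the sorted libraries, stayed out of library sizes. No replicate pair agreed within sampling noise (lowest chi-square per gene 62.0).

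The 10 sorted libraries were fitted by genotype in R 4.3.3 with edgeR 4.0.16 (filterByExpr, TMM, robust quasi-likelihood, Benjamini-Hochberg over all genes tested, threshold 0.05, two-sided). DESeq2 1.42.0, limma 3.58.1 voom with quality weights and other settings were alternatives. Log2 CPM used a prior count of 2. Exact permutation tests ran over all 252 assignments. The interaction used all 20 libraries. Lists (65, with 1052 distinct symbols, 1024 tested) were described by counts and medians, without a test. Members and lists were chosen with earlier results of these data known. Genes named are Il33, Il1rl1, the genes called, the 12 smallest p per direction at 5 CPM or more (without predicted models, pseudogenes and receptor segments), up to 4 members per list by p, all of the innate lymphoid and IL-33 lists, 5 neighbours on each side of Il33 and of the called genes, the 5 smallest interaction p, and the 2 most abundant members of each other-cell list. Ptprc, the sort marker, and genes said to be chosen after their values were seen were added.

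On simulated data for this comparison (16534 genes) edgeR recovered 29.9% of 1.5-fold, 83.6% of 2-fold and 95.5% of 4-fold changes, with 7 unchanged genes called. Exon lengths and GC came from GENCODE M21, which matched 46488 genes. Some genes that the rule names are not reported here.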

Additional observations from a re-analysis of the deposited data

Results flagged for a closer look

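Of 68 groups of 5 libraries checked, for the genes with the smallest p values, 6 list scores and the length gap, 1 held a library far from the other 4. This was Gabpb2 in IL33KO 1, at 64.8 CPM, where the gap to the nearest library was more than 0.71 of the whole range of the group. Chance marks about 5% of such groups. Without this library Gabpb2 would still lie above the WT range in the other 4 libraries, at 52.3 to 54.3 CPM.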

How the results depend on the processing

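The calls at an adjusted p under 0.05 depended on the tool. The main analysis called 1 gene higher and 1 lower; DESeq2 called 172 and 394, and limma voom 186 and 207. Genes called higher numbered 2 with no filter and with all 20 libraries, and 0 with a 5 CPM filter, the B cell score as covariate, the replicate block, or the length and GC offset; leaving out 1 library gave 0 to 1. Genes called lower numbered 2 without WT 3 and IL33KO 3 and with the length offset, and 1 to 2 with 1 library left out. The interaction, 0 in the main analysis, had 1 call with RLE factors, 4 with DESeq2, 3406 with limma voom and 0 to 1 with 1 library left out. The cause was not tested. With the replicate number as a block, 0 genes were higher and 1 lower; same-numbered libraries deviated together with correlations of −0.19 to 0.39 and only some matched best with their own number, so the numbers were not taken as pairs. Of 3116 alternative values for 125 named genes, 2971 kept direction and side of the threshold, 125 came to pass it, 12 ceased to and 8 changed sign. The changes of sign were Il1rl1, which ranged from −0.15 to 0.34 (−0.15, −0.14, −0.05, −0.08 and −0.0034 with 1 library left out, −0.017 with the length offset, −0.063 with length and GC), and Dpp8 (−0.0083 with length and GC). Depth was ample for most genes, but a 1.5-fold change was recovered in 29.9% of simulated cases only.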
